A study of Homo sapiens with 6 samples.

Results

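MYC, its obligate partner MAX and the MAX-binding repressors MGA, MNT, MXD1, MXD3, MXD4 and MXI1 form a network of transcription factors, and these 8 genes of the 58735 in the expression table are described here. They were taken by gene name, with earlier results of these data known, and all 8 were found. The libraries come from A375, an established human malignant melanoma cell line. Poly-A RNA was sequenced from cells labelled PAL, treated with a Ringer's lactate solution that had been activated with low-temperature plasma, and from cells labelled control, with 3 libraries in each group. All libraries share the cell line, and the labels give no other agent, exposure time or genotype. The PAL columns of the deposited table carry the number 64 in their names, whose meaning, a dose or otherwise, was not stated. The labels do not say whether the replicates were separate cultures, so a p-value here reflects only how these 6 libraries scatter, which may be technical scatter.

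As background, proteins of this network bind DNA as pairs with MAX through a basic helix-loop-helix leucine zipper. MYC paired with MAX activates genes of growth and ribosome production at sites called E-boxes. The MXD proteins, MXI1 and MNT compete for MAX and for the same sites and recruit the SIN3 histone deacetylase corepressor, while MGA carries a second DNA-binding domain of the T-box type and works with a Polycomb complex. MYC transcripts are short-lived and respond to growth signals, and several MXD genes are best known for rising as cells stop dividing and differentiate. MYC is a central driver of growth in many cancers.

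Reads assigned to genes numbered 15064971 to 17711389 per library. The heat shock genes HSPA6, HSPA1A, HSPA1B, DNAJB1 and HSPH1 were all lower in PAL, with HSPA6 between 1685 and 1999 FPKM in control libraries against 20.7 to 73.2 in PAL libraries. The libraries labelled control therefore hold the high levels of these stress-induced transcripts; no measured gene checks the labels, and directions follow them as given. Stress of the control cells and an exchange of the labels were not tested, and an exchange would turn every direction given here. The part of heat shock in the results below was not tested. Of 8 markers of the melanocyte lineage, 4 reached the filter described next: SOX10, S100B, S100A1 and MITF. All 8 markers summed to 98.1 to 101 FPKM in control and 117 to 118 in PAL. SOX10 made up most of the sum, TYR was listed at 0 in all libraries, and MLANA and DCT were near 0. Of the lineage markers, the pigment genes were thus absent or near 0. Of 4 keratinocyte markers, 2 reached the filter (KRT10 and KRT14; summed level 31.5 to 36.4 FPKM in control, 30.8 to 33.4 in PAL), and of 5 fibroblast markers 1 did (LUM; 4.32 to 4.81 and 3.27 to 4.69). Of 3 immune and 3 endothelial markers, 0 reached the filter. The part of these markers in the results was not tested. In bulk RNA of this kind, fewer cells with a transcript and less of it per cell cannot be told apart.

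Values are FPKM, reads scaled by the authors to gene length and library size. For the members this length is the union of all annotated exons, not the length of the transcripts expressed. Comparisons of level between genes, and orders, sums and ratios built on them, are therefore approximate. The difference between groups was tested with limma on log2(FPKM + 1), PAL minus control, over the 12258 genes that reached 1 FPKM in 3 or more libraries, at a Benjamini-Hochberg adjusted p below 0.05. This log scale understates the change of genes at a few FPKM, which holds for most of the network. All 8 members passed the filter, each of them in both groups. MYC, MXD1, MXD4 and MXI1 were lower in PAL, MNT and MXD3 were higher, and MAX and MGA did not pass. Among all genes tested 25.9% were called, 11.4% higher and 14.5% lower, against 6 of the 8 members called, 2 higher and 4 lower. The same 6 members had groups whose libraries did not overlap, a property of 21.4% of all genes tested in the higher and 23.6% in the lower direction.

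**Figure D1:**
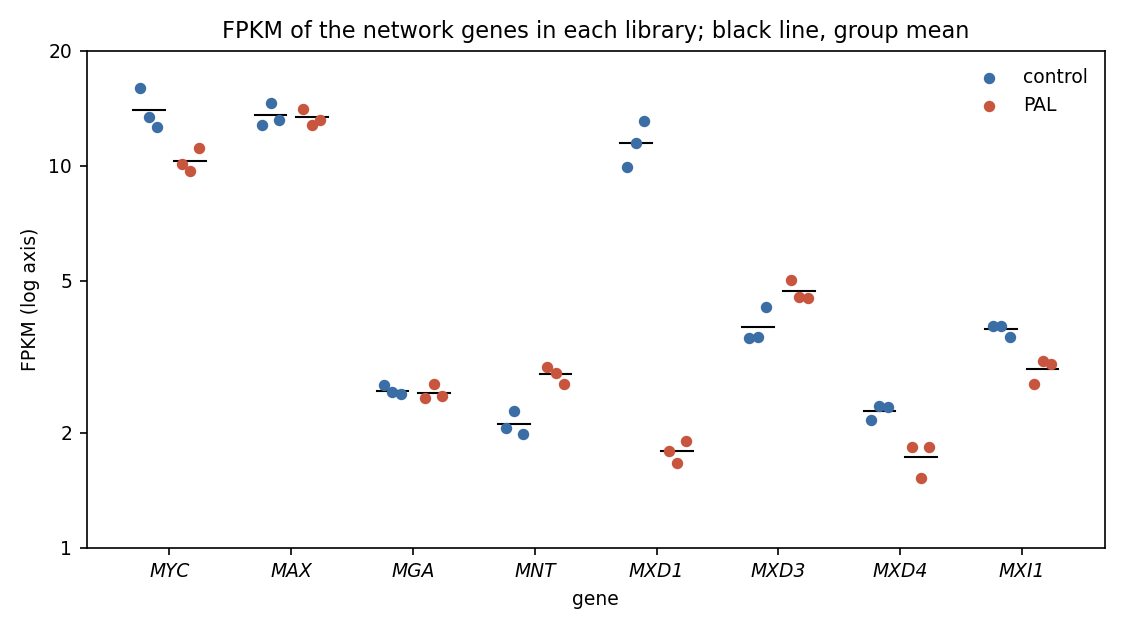
FPKM of the 8 network genes on a log axis, with 1 point per library (blue, control; red, PAL; 3 each) and a black line at the group mean. MXD1 lies at 9.93 to 13.1 in control and at 1.67 to 1.90 in PAL, while MAX and MGA overlap between the groups.

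MYC (ENSG00000136997, hg38 chromosome 8, 127735434 to 127741434, plus strand) is the activator of the network and had its highest mean level in control. Its 3 control libraries, in replicate order here and below, held 16.0, 13.4 and 12.6 FPKM, and its 3 PAL libraries held 10.1, 9.68 and 11.1. The highest PAL library lay below the lowest control library. MYC fell by 0.40 on the log2 scale (SE 0.09, 95% interval -0.61 to -0.20, adjusted p = 0.0167, limma), a ratio of means of 0.735 from 14.0 ± 1.75 to 10.3 ± 0.723 FPKM (SD, n = 3 each). These values rest on 485 to 758 reads per library. The call was lost without PAL replicate 1 (adjusted p = 0.0547) or PAL replicate 2 (adjusted p = 0.0621) and with no filter (adjusted p = 0.0588), and the adjusted p ranged from 7.69e-04 to 0.0621 over 17 alternatives, all with MYC lower in PAL.

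MAX (ENSG00000125952, chromosome 14, 65006174 to 65102695, minus strand), the shared partner of the other proteins of the network (some of the repressors can also pair with MLX), was at 12.8, 14.6 and 13.2 FPKM in control and 14.1, 12.8 and 13.2 in PAL. The groups overlapped, and the difference was -0.02 with a 95% interval of -0.15 to 0.12 (adjusted p = 0.847, limma). MAX therefore did not pass, and the interval holds small changes in both directions. Its sign turned to 0.05 after scaling to TPM and to 0.06 with plain read totals. With MYC lower, the mean of MAX was the highest of the network in PAL, and its libraries lay above all MYC libraries there, whereas both genes overlapped in control.

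MXD1, also called MAD1, a repressor that pairs with MAX and binds SIN3, had by far the largest difference of the 8. MXD1 (ENSG00000059728, chromosome 2, 69897688 to 69942945, plus strand) held 9.93, 11.5 and 13.1 FPKM in the control libraries but 1.79, 1.67 and 1.90 in the PAL libraries. The groups were far apart compared with the spread inside either of them. The ratio of means, control over PAL, was 6.45, from 11.5 ± 1.58 to 1.79 ± 0.114 FPKM (SD, n = 3 each). On the log2 scale MXD1 fell by 2.16 (SE 0.09, 95% interval -2.38 to -1.94, adjusted p = 2.39e-05, limma). Reads assigned to it numbered 998 to 1288 in control and 177 to 222 in PAL. By this difference it ranked 32 from the lowest of 12258 genes tested. It was lower at an adjusted p of at most 4.92e-04 in all 17 alternatives, with a difference of -2.67 to -2.07, so no single library decided it.

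The bases before the annotated start of MXD1 are shown because no other member moved as much. The sequence is that of RefSeq on GRCh38.p14, chr2:69914859-69915108, plus strand, the 250 bases before the start, all in lower case because none of the searched motifs was found in them.
MXD1 promoter: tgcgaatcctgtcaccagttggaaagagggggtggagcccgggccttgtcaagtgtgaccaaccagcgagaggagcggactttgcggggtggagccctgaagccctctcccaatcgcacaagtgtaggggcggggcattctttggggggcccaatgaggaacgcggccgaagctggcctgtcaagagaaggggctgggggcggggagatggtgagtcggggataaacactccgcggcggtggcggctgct
The motifs searched on both strands were the E-box CACGTG, where MYC and MXD proteins bind with MAX, the heat shock element GAANNTTC and the AP-1 site TGACTCA. In windows from 250 bases before to 50 after a start, they occur in 7.26%, 6.77% and 4.95% of 35116 RefSeq promoters. Absence of these letters from this window says nothing about binding elsewhere. The gene model behind the FPKM starts upstream of this promoter, at 69897688, and shares 237 of its 6351 exon bases with SNRNP27 on the same strand, a splicing factor gene at 11.1 FPKM in control and 10.8 in PAL.

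MXI1 and MXD4 are repressors of the same kind as MXD1 and were lower in PAL by much less. MXI1 (ENSG00000119950, chromosome 10, 110207605 to 110287365, plus strand) was at 3.81, 3.81 and 3.56 FPKM in control and 2.68, 3.08 and 3.02 in PAL. MXD4 (ENSG00000123933, chromosome 4, 2247432 to 2262294, minus strand) was at 2.16, 2.35 and 2.34 in control and 1.84, 1.52 and 1.84 in PAL. In neither gene did the groups overlap. MXI1 fell by 0.27 (SE 0.06, adjusted p = 0.0188, limma), a ratio of means of 0.785. MXD4 also fell by 0.27 (SE 0.07, adjusted p = 0.0358), a ratio of 0.759. Both rest on few reads, 227 to 278 per library for MXI1 and 179 to 256 for MXD4.

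These calls were less stable than that of MXD1. Leaving out PAL replicate 1 (adjusted p = 0.055), control replicate 1 (0.0571) or control replicate 2 (0.0629) ended the call of MXI1, with adjusted p values from 0.00759 to 0.0629 over 16 alternatives. That of MXD4 was lost without any 1 library: the adjusted p was 0.064, 0.0962 and 0.0573 without PAL replicates 1, 2 and 3 and 0.0583, 0.102 and 0.0838 without control replicates 1, 2 and 3. It was also lost after scaling to TPM (0.0652) or plain read totals (0.0633). Both genes had a lower mean in PAL in all of these fits.

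MNT and MXD3 went the opposite way. MNT (ENSG00000070444, chromosome 17, 2384060 to 2401118, minus strand), a repressor found in most cell types that antagonizes MYC, was at 2.06, 2.28 and 1.99 FPKM in control and 2.98, 2.87 and 2.69 in PAL. Every PAL library exceeded every control library. MNT rose by 0.31 (SE 0.06, 95% interval 0.16 to 0.46, adjusted p = 0.0138, limma), a ratio of means of 1.35, on 269 to 479 reads per library. Without PAL replicate 1 (adjusted p = 0.0533) or PAL replicate 2 (0.0513), or without both libraries numbered 3 (0.0518), it did not pass, over a range of 6.78e-04 to 0.0533 in 16 alternatives. In the MNT gene model, 1065 of 8728 exon bases are shared with the antisense gene AC006435.1, which was at 0.225 and 0.242 FPKM.

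MXD3 (ENSG00000213347, chromosome 5, 177301461 to 177312757, minus strand), an MXD protein best known from dividing cells, was at 3.55, 3.56 and 4.26 FPKM in control and 5.03, 4.54 and 4.52 in PAL. Control replicate 3 came close to the PAL libraries without reaching them. MXD3 rose by 0.25 (SE 0.07, 95% interval 0.08 to 0.43, adjusted p = 0.0442, limma), a ratio of means of 1.24. The adjusted p was 0.132, 0.0922 and 0.0746 without PAL replicates 1, 2 and 3, 0.119 and 0.126 without control replicates 1 and 2, and 0.0164 without control replicate 3. Its range was 0.0117 to 0.132 over 16 alternatives. The gene model of MXD3 shares 1158 of its 5154 exon bases (22.5%) with PRELID1 on the other strand, a gene at 164 FPKM (control mean) and 169 FPKM (PAL mean), and 926 bases (18.0%) with RAB24 on the same strand. The strand setting of the authors' counting was not given in the sources used here, so the share of reads that belongs to MXD3 is uncertain.

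MGA (ENSG00000174197, chromosome 15, 41621224 to 41773081, plus strand), the largest protein of the network, had the smallest difference. It stood at 2.66, 2.56 and 2.52 FPKM in control and 2.47, 2.68 and 2.50 in PAL, with overlapping groups. The difference was -0.01 with a 95% interval of -0.14 to 0.12 (adjusted p = 0.882, limma), and its sign turned to 0.05 both after scaling to TPM and with plain read totals. With 17651 exon bases it has the longest model of the 8, and its 669 to 814 reads per library give a low level per length.

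**Figure D2:**
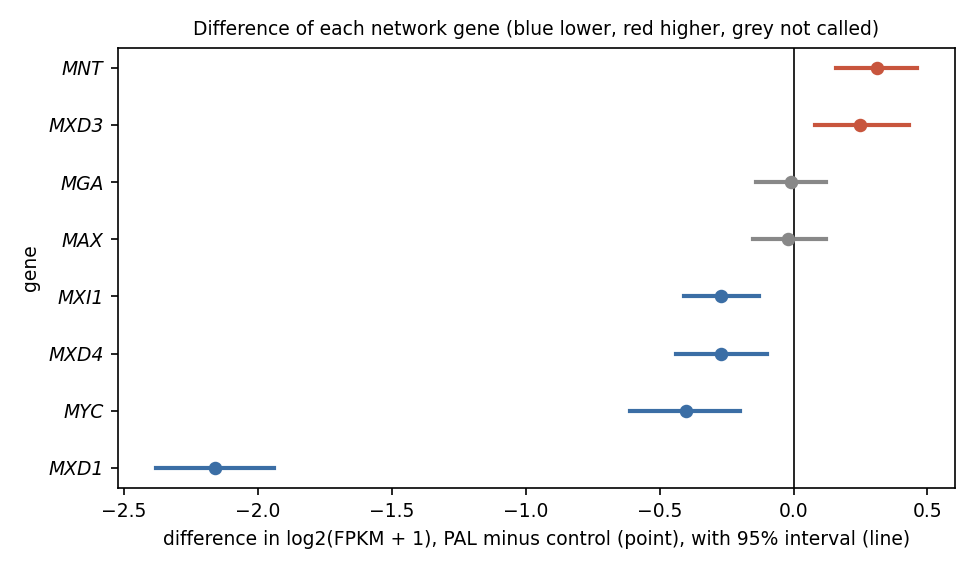
Difference of each network gene in log2(FPKM + 1), PAL minus control (point), with its 95% interval from limma (line), ordered by size; blue marks genes called lower, red higher and grey not called. MXD1 at -2.16 stands far from the other members, which lie between -0.40 and 0.31.

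The E-box letters occur before the start of MNT, which was higher in PAL, and of MXD4, which was lower, and in no other promoter of the 7 members matched in RefSeq. Of these 7 members, MAX has 2 annotated promoters and MGA and MXI1 have 3 each. The windows are shown 5′ to 3′ on the minus strand of GRCh38.p14 with the E-box in capitals, because the proteins of the network bind such sites themselves. The MNT window is chr17:2401228-2401273, with the first base of the E-box at -193 from the start. The MXD4 window is chr4:2262322-2262359, with that base at -238.
MNT: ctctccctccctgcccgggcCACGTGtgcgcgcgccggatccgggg
MXD4: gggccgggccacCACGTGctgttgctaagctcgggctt
A match is a description of letters and not a site of binding. The AP-1 letters were found once, at -79 from the start of MXD3, and the heat shock element once, in the second promoter of MGA.

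The order of levels within the network differed between the groups. In control MYC (14.0), MAX (13.6) and MXD1 (11.5) led with overlapping neighbours, clearly above MXD3 (3.79) and MXI1 (3.73), which overlapped each other. MGA (2.58), MXD4 (2.28) and MNT (2.11 FPKM) followed, the last pair overlapping. In PAL, MAX (13.4) and MYC (10.3) led, MXD3 (4.70) came next, MXI1 (2.93) and MNT (2.85) overlapped, MGA (2.55) followed, and MXD1 (1.79) and MXD4 (1.73 FPKM) overlapped at the bottom. By FPKM, MXD1 went from the highest of the 6 repressors to a level shared with the lowest.

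The summed FPKM of the 6 repressors was 24.2, 26.1 and 27.8 in the control libraries against 16.8, 16.4 and 16.5 in the PAL libraries. MXD1 made up 44.1% ± 3.04 of this sum in control and 10.8% ± 0.671 in PAL (SD, n = 3 each). Without MXD1 the sum was 14.5 ± 0.225 in control and 14.8 ± 0.223 in PAL, a difference close to the spread within a group. The other 5 repressors, of which MNT and MXD3 were higher, MXD4 and MXI1 lower and MGA not called, therefore summed to nearly the same level.

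The balance of MYC against all 6 repressors, as a ratio of FPKM, was 0.660, 0.514 and 0.454 in control and 0.601, 0.592 and 0.673 in PAL, and the groups overlapped. On the log2 scale this balance differed by 0.21. With 1 library left out, the difference lay between 0.09 (without control replicate 3) and 0.36 (without control replicate 1). Without both libraries numbered 3, the PAL ratios (0.601 and 0.592) lay between the control ratios (0.660 and 0.514). Against the 5 repressors other than MXD1, a choice made after seeing the data, the ratio was 1.12, 0.920 and 0.859 in control and 0.673, 0.659 and 0.761 in PAL, with no overlap, and the log2 difference was -0.46. Against MXD1 alone, the ratio was 1.25 ± 0.330 in control and 5.76 ± 0.107 in PAL. The balance was thus lower in PAL with MXD1 left out, while with MXD1 counted the groups overlapped and no clear direction was seen. These ratios are descriptions of transcript levels and were given no test. The repressor sums, and the ratios against them, include MXD3, whose share of reads is uncertain.

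**Figure D3:**
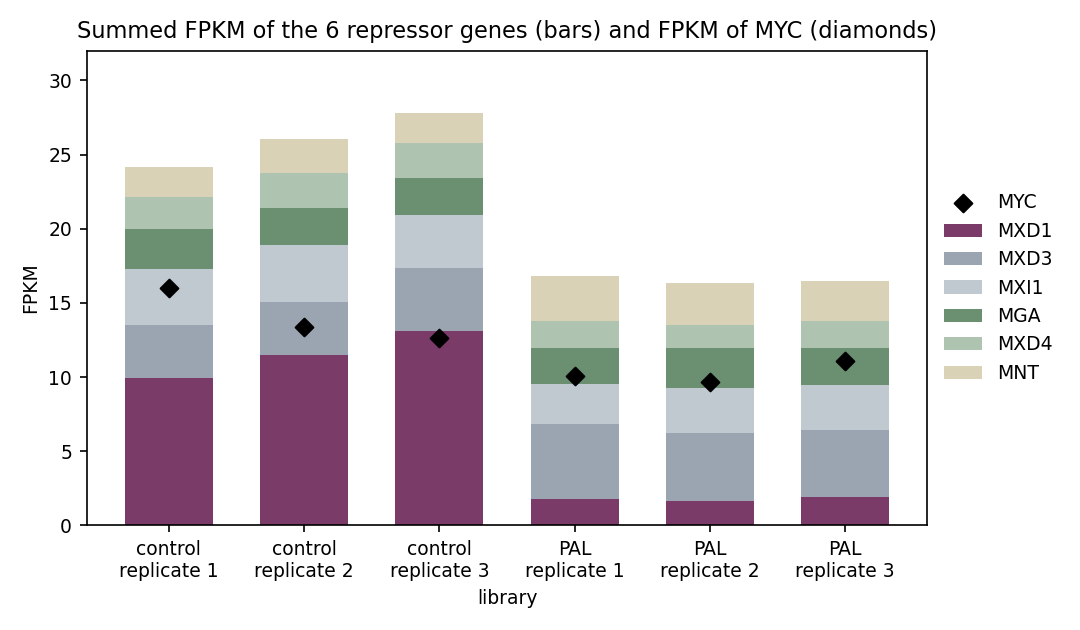
Bars give the FPKM of the 6 repressor genes stacked for each library, and diamonds give the FPKM of MYC. The MXD1 part shrinks from 9.93 to 13.1 in control to 1.67 to 1.90 in PAL, while the rest of each bar sums to between 14.2 and 15.0.

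Among other transcription factors, MXD1 ranked 8 from the lowest of 854 tested genes that the authors' deposited table assigns to a transcription factor family, and lowest of 42 tested genes in its bHLH family, to which that table assigns 7 members of the network (it lists MGA as T-box). Of the 35 bHLH genes outside the network, 2 were higher and 9 lower in PAL, with a median difference of -0.00. Of the 854 transcription factor genes, 116 were higher and 201 lower, with a median of -0.01. Of all genes tested 11.4% were higher and 14.5% lower, with a median of 0.00. The bHLH genes next to MXD1, named after their values were seen, were ID2, an inhibitor of bHLH pairing (17.3, 16.6 and 14.3 FPKM in control, 4.34, 4.81 and 8.81 in PAL), and HEY1, a Notch target (7.31, 6.79 and 6.41 in control, 2.09, 1.74 and 2.54 in PAL).

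The genes whose levels followed MYC most closely over the 6 libraries, by Pearson's r of log2(FPKM + 1) among 10330 tested protein-coding genes, were USP3 (0.996), TNC (0.995), RACGAP1 (0.994), PIR (0.992) and NQO1 (0.989). Their differences were small: TNC, an extracellular matrix protein, was at 112, 109 and 108 FPKM in control and 104, 102 and 105 in PAL (adjusted p = 0.0575, limma). RACGAP1, which acts in cytokinesis, was lower by -0.16 (adjusted p = 0.0299), a call lost without PAL replicate 1 (0.0951), PAL replicate 2 (0.0958), control replicate 1 (0.0679) or control replicate 2 (0.0639) and under all other scalings (0.0574 to 0.184). The points are 6 libraries from 2 groups with a group difference in MYC, so these values are a description only. Within the network, r with MYC was 0.88 for MXI1, 0.84 for MXD1, 0.78 for MXD4, 0.28 for MGA, -0.02 for MAX, -0.87 for MNT and -0.89 for MXD3.

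Genes around the network were grouped in 9 lists of 141 genes, of which 130 were tested. Of these, 12 were higher and 26 lower in PAL (all genes tested, 11.4% higher and 14.5% lower). As for all genes, the split of calls depended on scaling: rises made up 44.0% of all calls on the deposited scale, 69.7% on the TPM scale, 73.3% with plain read totals and 59.2% when quantiles were normalized, while the median over all genes tested moved to 0.0753 or less. Among the other MYC proteins, MYCN and MYCL were near 0 and not tested, so MYC was the main family member expressed. MYCN was at 0.118 FPKM in control and 0.106 in PAL, with overlapping groups. MYCL was at 0.309 in control and 0.152 in PAL, and its groups did not overlap. In the parallel branch that pairs with MLX, MLX was at 21.8 FPKM in both groups (adjusted p = 0.99, limma) and MLXIP, or MondoA, was at 3.96 and 4.41 (adjusted p = 0.0823). MLXIP passed as higher after scaling to TPM (0.0243), with plain read totals (0.0176) and with voom (0.024). PVT1, a noncoding neighbour of MYC, was at 1.38 ± 0.102 in control and 1.46 ± 0.254 in PAL (adjusted p = 0.769).

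Of 12 tested genes of the SIN3 corepressor, which MXD proteins and MNT recruit, 6 were lower and 0 higher in PAL, with a median of -0.12 (14.5% of all genes tested were lower). ARID4A, a subunit that binds the retinoblastoma protein, went from 2.37, 2.77 and 3.29 FPKM in control to 1.07, 0.950 and 1.08 in PAL, and fell by 0.90 (adjusted p = 0.00123, limma). SAP30 was at 22.0, 23.3 and 21.0 in control and 16.8, 16.1 and 17.4 in PAL and fell by 0.38, and ARID4B fell by 0.28. Of the deacetylases, named after their values were seen, HDAC1 fell by 0.15, from 62.9 ± 0.997 to 56.4 ± 1.99 (adjusted p = 0.0147, limma). HDAC2 did not pass (-0.05, adjusted p = 0.37). The scaffolds themselves did not pass: SIN3A was at 5.76 ± 0.224 and 5.53 ± 0.197 (adjusted p = 0.466) and SIN3B at 9.09 ± 0.288 and 8.56 ± 0.453 (adjusted p = 0.255). The count lower was 4 to 7 over the 17 alternatives, and 4 under each other scaling, where plain read totals also gave 1 higher. Over all 12258 genes tested, falls went from 1780 to 1170 as TPM, 1130 with plain read totals and 1428 after quantile normalization.

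Of 14 tested cofactors of MYC, 3 were higher and 0 lower, with a median of 0.04, where 11.4% of all genes tested were higher and 14.5% lower. KAT2A, an acetyltransferase that MYC recruits, rose from 17.5 ± 0.896 to 21.3 ± 0.132 FPKM (0.27, adjusted p = 0.00449, limma). ZBTB17, or MIZ1, through which MYC represses genes, rose by 0.19 (adjusted p = 0.0392) and WDR5, which anchors MYC on chromatin, by 0.17 (adjusted p = 0.0206). The call of ZBTB17 was lost without PAL replicate 1 (0.104), PAL replicate 3 (0.076) or control replicate 1 (0.0813), 2 (0.113) or 3 (0.0609). That of WDR5 was lost without PAL replicate 1 (0.0503), 2 (0.0746) or 3 (0.0526) or control replicate 2 (0.0583). The count higher was 2 without PAL replicate 1 or 2 or control replicate 1 or 3, 1 without PAL replicate 3 or control replicate 2, and 7 as TPM or with plain read totals. Over all 12258 genes tested, rises went from 1399 to 2697 as TPM and 3097 with plain read totals.

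Of 10 tested partners of MGA in its Polycomb complex, 1 was higher and 1 lower (all genes tested, 11.4% and 14.5%). RYBP fell from 9.43 ± 1.24 to 6.51 ± 0.263 FPKM (-0.47, adjusted p = 0.00822, limma), and TFDP1 rose by 0.12 (adjusted p = 0.0323). The call of TFDP1 was lost without PAL replicate 1 (0.0915), 2 (0.0995) or 3 (0.0608) or control replicate 2 (0.0863) or 3 (0.0734). Of 16 tested genes that govern stability of the MYC protein, 1 was higher and 3 lower. PIM1, a kinase that stabilizes MYC, went from 9.15 ± 0.607 to 6.12 ± 0.311 FPKM and fell by 0.51 (adjusted p = 0.00144). FBXW7, the ubiquitin ligase subunit that marks MYC for degradation, was at 1.52 ± 0.205 and 1.12 ± 0.0359 and did not pass (adjusted p = 0.0609; chosen after its value was seen). HUWE1, another ligase for MYC, fell by 0.17 (adjusted p = 0.00762), but did not pass as TPM (0.053) or with plain read totals (0.0525). Under either of these scalings the turnover genes split into 3 higher and 1 lower. Of all 12258 genes tested, 2697 were higher and 1170 lower as TPM, and 3097 and 1130 with plain read totals.

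Genes that MYC is known to induce did not move one way. Of 32 tested genes of ribosome production, 1 was higher and 4 lower, with a median of 0.02 (all genes tested, 11.4% higher and 14.5% lower). NCL, or nucleolin, went from 235 ± 1.41 to 203 ± 3.84 FPKM and fell by 0.21 (adjusted p = 0.00124, limma), and NOLC1 and UTP20, both of the nucleolus, fell by 0.19 and 0.20. BOP1, needed for the large ribosomal subunit, rose from 45.7 ± 1.19 to 52.5 ± 1.40 (0.20, adjusted p = 0.00599). The count of rises depended on the scaling: 7 after quantile normalization, 10 as TPM and 15 with plain read totals, with 3 to 4 falls. Over all 12258 genes tested, rises went from 1399 to 2069, 2697 and 3097 under the same scalings. Without control replicate 3, the list had 3 rises. NCL, NOLC1, UTP20 and BOP1 kept their direction and call in all 17 alternatives.

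Of 33 other tested genes that MYC induces, 5 were higher and 6 lower, with a median of 0.01 (all genes tested, 11.4% higher and 14.5% lower). The largest falls were the mitochondrial chaperonins HSPD1 (-0.67, from 460.1 ± 23.2 to 289 ± 6.29 FPKM) and HSPE1 (-0.50), which also respond to heat shock, followed by TMEM97, a sterol-responsive gene (-0.39). The largest rises were SLC19A1, a folate carrier (0.28, from 3.71 ± 0.140 to 4.73 ± 0.245), SRM, spermidine synthase (0.19), and TBRG4 (0.18). All 6 kept their call in every alternative that tested them. Well-known targets outside the naming rule, chosen after their values were seen, include genes that did not pass: LDHA was at 183 ± 3.62 and 178 ± 2.55 (adjusted p = 0.206, limma) and ODC1 at 39.6 ± 2.27 and 34.9 ± 1.83 (0.0503). The count of rises was 3 without PAL replicate 1 or 2 or control replicate 1 or 3, 9 after quantile normalization and 11 as TPM or with plain read totals. Over all 12258 genes tested, rises went from 1399 to 2069 after quantile normalization, 2697 as TPM and 3097 with plain read totals.

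Of 10 tested genes that MYC is known to repress, 6 were lower and 1 higher, with a median of -0.33, where 14.5% of all genes tested were lower and 11.4% higher. These falls were the largest of the lists: GADD45B went from 59.6, 55.8 and 40.6 FPKM in control to 10.8, 11.4 and 19.8 in PAL (-1.85, adjusted p = 0.00235, limma), GADD45A fell by 1.46 and DDIT3 by 1.20. Of the growth arrest genes, named after their values were seen, CDKN1A and CDKN1C each fell by 0.51. CDKN1B did not pass (-0.09, adjusted p = 0.617, limma). In GADD45B the libraries numbered 3 lay nearest to the other group, in control and in PAL. GADD45A, GADD45B and DDIT3 are also stress-response genes, and CDKN1A is a p53 target, so the list holds genes under other control than MYC. FTH1, ferritin heavy chain, rose by 0.12 (adjusted p = 0.0243), a call lost without PAL replicate 2 (0.0768) or 3 (0.0596) or control replicate 1 (0.0785) or 2 (0.0656). The count lower was 5 to 7 over the alternatives.

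**Figure D4:**
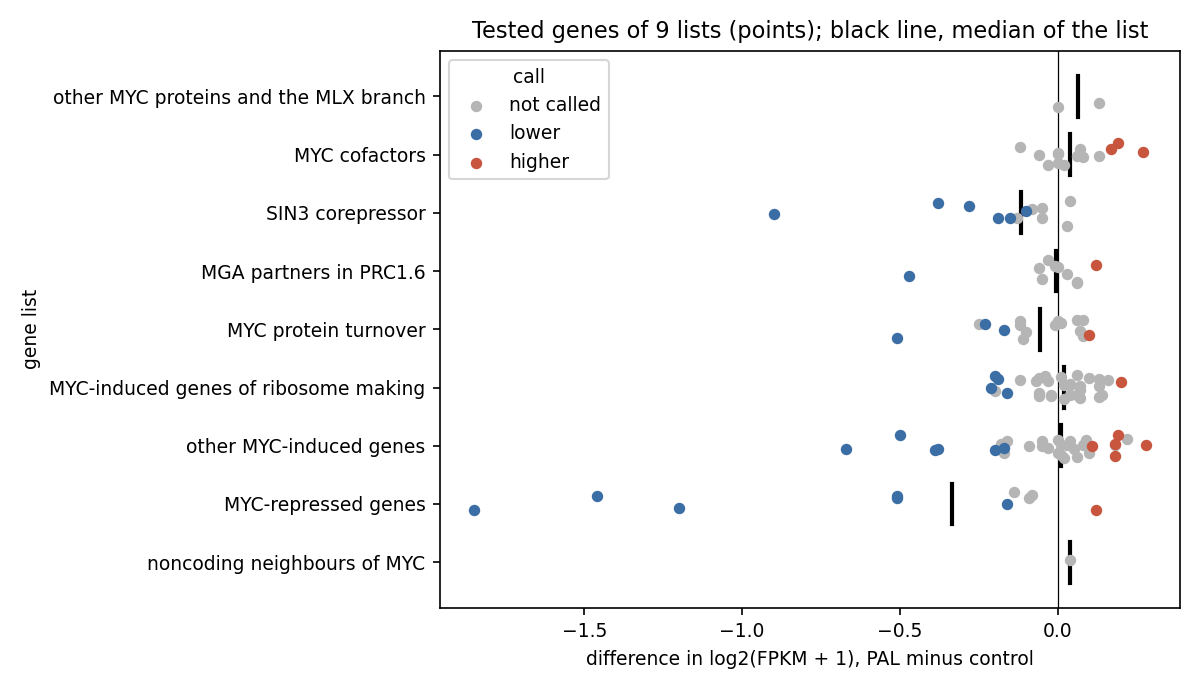
Each point is a tested gene of 1 of 9 lists around the network, placed by its difference in log2(FPKM + 1), PAL minus control, and coloured by its call in limma; the height within a row carries no meaning. Black lines mark list medians, which run from -0.33 for the MYC-repressed genes to 0.06 for the MLX branch.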

How the data were processed

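The deposited table holds 1 FPKM value per gene and library, made by the authors from poly-A RNA-seq of 6 libraries, per the file headers; hg38 is named in the submitters' processing notes, and the aligner, counter and strand setting were not given in the sources used here. All 58735 genes have the start and end of GENCODE release 29, and for the 8 members the deposited gene length equals the union of its exons. Multiplying FPKM by length and dividing by the smallest step of the library gave whole reads for 100% of values (within 0.01); the library size behind the FPKM was 0.980 to 1.05 of the plain read total.

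Groups and replicate numbers follow the sample titles. Differences were tested with limma 3.58.1 under R 4.3.3 (linear model of log2(FPKM + 1), pseudocount 1, prior variance following expression, two-sided, Benjamini-Hochberg over all genes tested), tested on simulated data. Alternatives were pseudocounts of 0.1 and 0.5, no filter, a mean of at least 5 FPKM, TPM, plain read totals, quantile normalization, 1 prior variance, a replicate block, voom on recovered reads, and libraries left out. The members, lists and tests were chosen with earlier results of these data known. The naming rule took all members, the 5 genes most like MYC and 5 heat shock genes. From each list it took the 3 largest rises and falls that passed, or the 2 most abundant genes if none passed. Part of these are named. Genes outside the rule are also named, among them SIN3A, SIN3B, HDAC1, HDAC2, CDKN1A, CDKN1B and CDKN1C. Promoters are RefSeq sequences on GRCh38.p14; 7 of 8 members were matched. Figures were drawn with matplotlib 3.10.9.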

Additional observations from a re-analysis of the deposited data

How the results depend on the processing

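MXD1 kept its direction and call in all 17 alternatives, and the other called members kept their direction in each alternative that tested them. The count of members called dropped from 6 to 2 with no filter and to 2 with a mean of at least 5 FPKM (3 members tested there), to 3 without both libraries numbered 3 and to between 1 and 5 when 1 library was left out. Of the 12258 genes tested, 3179 were called, and 1855 to 2789 with 1 library left out. With no filter, 2103 of 29505 genes tested were called. The 38 list genes called became 61 of 130 with plain read totals, where the 3179 of all genes tested became 4227. The balance of MYC differed by 0.21, with overlapping groups, and by -0.46 with MXD1 left out of the sum.

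Signs turned only for genes that had not passed. MAX moved from -0.02 to 0.05 (TPM), 0.06 (plain read totals) and 0.02 (quantile normalization), and between -0.05 and 0.03 with 1 library left out. MGA moved from -0.01 to 0.05 with TPM and with plain read totals, and between -0.04 and 0.00 with 1 library left out. MLX moved from -0.00 to 0.07 (TPM), 0.08 (plain read totals), 0.05 (quantile normalization) and 0.00 (voom), and between -0.02 and 0.01 with 1 library left out. PVT1 ranged from -0.01 to 0.13 with 1 library left out and was at -0.03 without both libraries numbered 3. TNC moved to 0.01 with plain read totals, and NQO1 to 0.04 (TPM), 0.06 (plain read totals) and 0.06 (quantile normalization). The cause of these moves was not tested.

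Small list counts also moved. With no filter, 1 gene was lower among the other MYC proteins and the MLX branch, where 5 were tested. The MYC cofactors had 1 gene higher with no filter, with the replicate block or without both libraries numbered 3. The other MYC-induced genes had 3 higher under each of these settings and 7 with voom. The ribosome genes had 3 higher and 6 lower with voom. The rise among the MGA partners and the rise among the turnover genes were both lost with no filter, with 1 prior variance and with the replicate block.

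Over all genes tested, equal replicate numbers did not deviate together. The correlations of their deviations from the group means were -0.024, 0.027 and -0.045, and not every library correlated best with its own number. These values do not describe single genes. PAL replicate 3 was the highest PAL library for each heat shock gene (HSPA6 at 20.7, 27.4 and 73.2). Control replicate 3 was the lowest control library for HSPA6 and HSPA1B but the highest for DNAJB1 and HSPH1. With the replicate block, 3 members were called (MYC, MNT and MXD1), and 2131 of all genes tested. MNT, MXD3, MXD4 and MXI1 rest on 179 to 479 reads per library, which limits how small a change could be called.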
